A study of Mus musculus with 9 samples.

Results

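In mouse T helper 1 (Th1) cells, 1070 genes were named as the closest gene of at least 1 listed H3K4me1 region and also of at least 1 listed H3K27me3 region. They were chosen by the listed regions of both marks, through an exact match of the gene symbol in the authors' lists, leaving out symbols that had turned into dates. They make up 25.7% of the 4166 genes of the H3K4me1 list, 37.3% of the 2870 genes of the H3K27me3 list and 17.9% of the 5966 genes in either list. Their regions number 4202 of 11618, with 2524 H3K4me1 and 1678 H3K27me3 regions. Numbers, distances and order of these regions follow from the choice of genes and are a description with no test.

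The series set Tbx21-/- Th1 cells against wild type Th1 cells. T-bet, the transcription factor encoded by Tbx21, drives the Th1 program, and transcripts and histone marks were compared in its absence and presence. All cells came from C57BL/6 mice that carry T-bet-ZsGreen, a fluorescent reporter of T-bet expression. Naive CD4+ T cells of the Tbx21-/- reporter mice and of the wild type reporter mice were cultured under Th1 conditions with interleukin-2, interleukin-12, antibodies to CD3, CD28 and interleukin-4, and irradiated splenocytes depleted of T cells. Cells positive for the reporter were then sorted and grown further, in both genotypes. RNA-seq has 2 libraries per genotype, for which the authors' lists give 1 value per genotype. H3K4me1 and H3K27me3 ChIP-seq have 1 library per genotype each, and T-bet ChIP-seq has 1 wild type library. Tbx21 itself stood at 124 FPKM in Tbx21-/- cells and at 271 FPKM in wild type cells (FPKM, mapped fragments scaled for transcript length and library size), so transcript of the targeted gene remained in the cells labelled as knockout. The labels do not say whether the 2 RNA libraries of a genotype came from separate mice. Of 12 Th1 markers, 9 were listed as lower in Tbx21-/- cells and 0 as higher. The 9 include the targeted gene Tbx21 itself, and Ifng at 19.5 FPKM in Tbx21-/- and 1011 FPKM in wild type cells. Of 7 Th2 markers 6, of 11 myeloid and dendritic markers 4 (Cd74, H2-Aa, H2-Ab1 and H2-Eb1) and of 5 B cell markers 1 were listed as higher in Tbx21-/- cells, and of 6 CD8 T and NK markers 1 as lower; the part of such cells in the results was not tested. In bulk samples fewer cells of a type and less RNA per cell cannot be told apart.

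H3K4me1, laid down mainly by the Mll3 and Mll4 methyltransferases, is typical of enhancers, both active and inactive. H3K27me3 is laid down by Polycomb repressive complex 2 and is typical of silent genes, among them lineage regulators of T cells that another helper lineage uses. Enhancers that carry both marks on the same stretch of chromatin are commonly called poised. Each histone list is named for both genotypes, and the sources used here do not say which genotype had more signal in a region, so that a region has no direction here. A gene with both marks in the lists need not carry them on the same nucleosomes, in the same cells or even in the same genotype.

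The promoters of 4 of these genes show how unlike their sequences are. Shown are the 300 bases from 250 before to 50 after the annotated start, from RefSeq in build GRCm38.p6, 5′ to 3′, with each CG dinucleotide in capitals, since dense CG is a known feature of Polycomb targets. Ifngr2 (chr16:91546809-91547108, plus strand) and Tnfsf11 (chr14:78307994-78308293, minus strand) had overlapping marks, Ccr4 (chr9:114496495-114496794, minus strand) had the marks 115 bases apart, and Gata3 (chr2:9878551-9878850, minus strand) is the Th2 regulator with 3 regions of H3K27me3.
Ifngr2: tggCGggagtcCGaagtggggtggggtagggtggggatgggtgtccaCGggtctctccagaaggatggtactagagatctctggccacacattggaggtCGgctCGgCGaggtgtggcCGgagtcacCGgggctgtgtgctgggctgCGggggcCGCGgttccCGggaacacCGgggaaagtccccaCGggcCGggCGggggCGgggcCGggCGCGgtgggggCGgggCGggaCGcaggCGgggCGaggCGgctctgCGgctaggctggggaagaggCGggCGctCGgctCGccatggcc
Tnfsf11: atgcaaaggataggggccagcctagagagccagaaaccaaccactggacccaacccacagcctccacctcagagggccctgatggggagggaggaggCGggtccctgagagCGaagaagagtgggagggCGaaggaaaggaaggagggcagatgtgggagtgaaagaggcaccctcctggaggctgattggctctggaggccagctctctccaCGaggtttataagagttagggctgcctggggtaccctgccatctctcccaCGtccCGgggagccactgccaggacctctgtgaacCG
Ccr4: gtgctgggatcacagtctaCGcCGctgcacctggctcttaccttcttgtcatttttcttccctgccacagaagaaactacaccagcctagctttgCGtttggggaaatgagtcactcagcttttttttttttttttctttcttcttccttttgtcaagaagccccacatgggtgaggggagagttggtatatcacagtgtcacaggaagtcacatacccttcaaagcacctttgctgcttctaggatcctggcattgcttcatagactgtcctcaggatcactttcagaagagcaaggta
Gata3: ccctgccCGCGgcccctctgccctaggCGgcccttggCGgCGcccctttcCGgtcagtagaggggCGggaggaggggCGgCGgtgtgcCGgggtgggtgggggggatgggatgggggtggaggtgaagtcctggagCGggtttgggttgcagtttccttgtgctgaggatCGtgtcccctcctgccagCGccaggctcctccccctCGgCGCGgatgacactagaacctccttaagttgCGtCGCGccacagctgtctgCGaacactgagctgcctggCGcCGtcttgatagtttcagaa

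These windows held 31 CG dinucleotides at Ifngr2, 22 at Gata3, 7 at Tnfsf11 and 3 at Ccr4, against a median of 7 (quartiles 3 and 20) over 32851 promoters of the same length. Ifngr2 and Gata3 thus had CG-rich promoters, while those of Tnfsf11 and Ccr4 were at or below the median. The T-box motif AGGTGTGA and its shorter core GTGTGA, which every AGGTGTGA contains, were searched on both strands. Neither was found in the 4 windows; of all 32851 promoters, 1.28% held AGGTGTGA and 14.5% held GTGTGA. The regions are in build mm9, so they were not placed on these sequences. A promoter was found for 76.7% of the 1070 genes. No comparison of CG content over the whole group was made, so the 4 chosen windows do not stand for it.

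One of the 7 genes that RefSeq lists as microRNAs, Mir148a, is known from activated Th1 cells. It had 1 H3K4me1 region, 1 H3K27me3 region 76547 bases away and 1 T-bet peak. Its mature form is shown with the seed, bases 2 to 8, in capitals.
miR-148a-3p: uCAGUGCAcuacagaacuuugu

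The marks were usually close to each other without touching. The shortest distance between an H3K4me1 and an H3K27me3 region of the same gene had a median of 16837 bases (quartiles 4599 and 42353). It was under 1 kb at 102 genes or 9.53%, under 10 kb at 402 genes or 37.6%, and under 100 kb at 988 genes or 92.3%. At 47 genes, or 4.39%, regions of the marks overlapped by at least 1 base, with a median overlap of 451 bases. Most genes rested on few regions: 417 of 1070 had 1 region of each mark, 725 had a single H3K27me3 region and 570 a single H3K4me1 region. The distance was longer where there were fewer regions, with a median of 23052 bases at genes with 1 region of each mark and 9517 bases at the 192 genes with 2 or more of each. With more regions the shortest distance is taken from more pairs, so this relation follows at least in part from the measure.

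**Figure D1:**
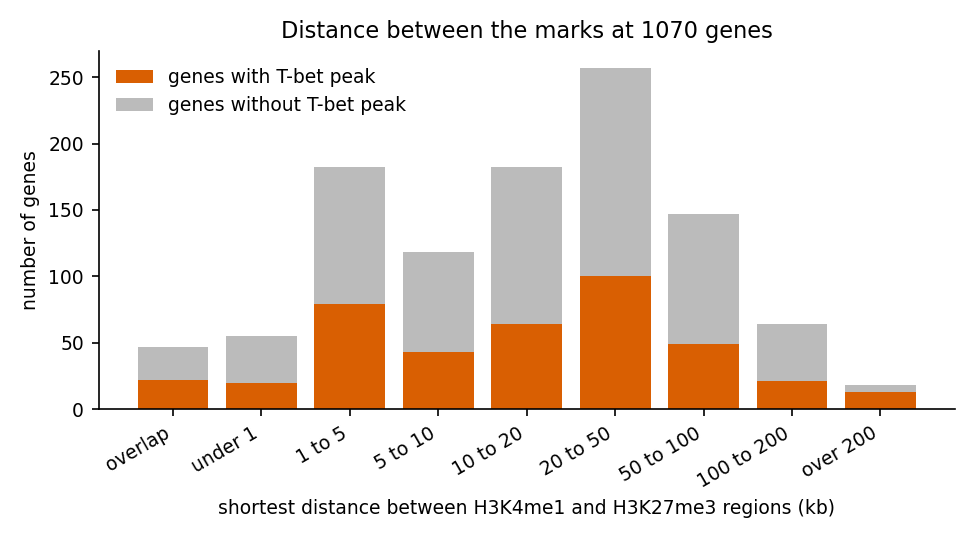
Number of genes (vertical axis) by the shortest distance between their H3K4me1 and H3K27me3 regions in kb (horizontal axis, classes of unequal width), with genes that had a T-bet peak in orange at the foot of each bar and genes without one in grey. The fullest class is 20 to 50 kb with 257 genes, and 47 genes have overlapping marks.

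Along the chromosome the marks mostly lay side by side. At 753 genes, or 70.4%, all H3K4me1 regions lay on one side and all H3K27me3 regions on the other. H3K4me1 was at the lower coordinates in 389 of these and H3K27me3 in 364, a near-even split of 51.7% (exact 95% interval 48.0 to 55.3); the strand of the genes was not used. At 139 genes, or 13.0%, the H3K27me3 regions lay between the outermost H3K4me1 regions, and at 81 genes, or 7.57%, H3K4me1 lay between the outermost H3K27me3 regions. The marks alternated at 50 genes, or 4.67%. A gene with 1 region of each mark can only have them apart or overlapping. Among the 192 genes with at least 2 of each, 58 had the marks on separate sides, 50 had them alternating, 41 had H3K27me3 inside H3K4me1, 29 had H3K4me1 inside H3K27me3 and 14 had them overlapping.

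The single regions looked alike in strength whether or not their gene had the other mark. H3K4me1 regions had a median of 27 tags at genes with both marks and 27 at genes with H3K4me1 only, with a median fold enrichment (the peak caller's ratio to its control, as the authors give it) of 7.21 and 6.83. H3K27me3 regions had a median of 19 tags at genes with both marks and 18 at genes with H3K27me3 only, with a median fold of 7.19 and 7.24. Fold enrichment is a limited measure of strength, since single values recur at many regions with few tags. A fold of 9.09 stood at 221 H3K27me3 regions with 11 to 25 tags, and 13.11 at 125 H3K4me1 regions with 8 to 17 tags. Genes with both marks had more regions of each mark per gene, with 2.36 H3K4me1 regions on average against 1.66 at genes with H3K4me1 only, and 1.57 H3K27me3 regions against 1.26 at genes with H3K27me3 only.

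Genes with overlapping marks included T cell regulators and signalling genes. At these 47 genes the H3K27me3 region lay wholly inside an H3K4me1 region in 15 cases, and the H3K4me1 region lay wholly inside an H3K27me3 region in 7. Runx3, a Runt transcription factor that works with T-bet, had 21 H3K4me1 regions with 3247 tags in all and a single H3K27me3 region with 24 tags on chromosome 4 at 134706949 to 134707721, all 773 bases of which lay in an H3K4me1 region. Bcl11b, a transcription factor that keeps T cell identity, had 12 H3K4me1 and 3 H3K27me3 regions, with an overlap of 377 bases. Pbx3, a homeodomain partner of Hox proteins, showed the opposite balance, with 8 H3K27me3 and 3 H3K4me1 regions and an overlap of 649 bases. Further genes of this group, chosen after their values were seen, were Sfpi1, which encodes the myeloid and B cell factor PU.1 (overlap 1064 bases), the signalling inhibitor Spry1 (674 bases) and Nfkbia, which encodes the NF-kappaB inhibitor IkappaB alpha (512 bases). Of the 47 genes, 0 were listed as lower and 2 as higher in Tbx21-/- cells, namely Ifngr2 and Tnfsf11. Over all 1070 genes with both marks 2.99% were listed as lower and 1.87% as higher. At such shares few of 47 genes would be listed in either direction, and no difference was tested.

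**Figure D2:**
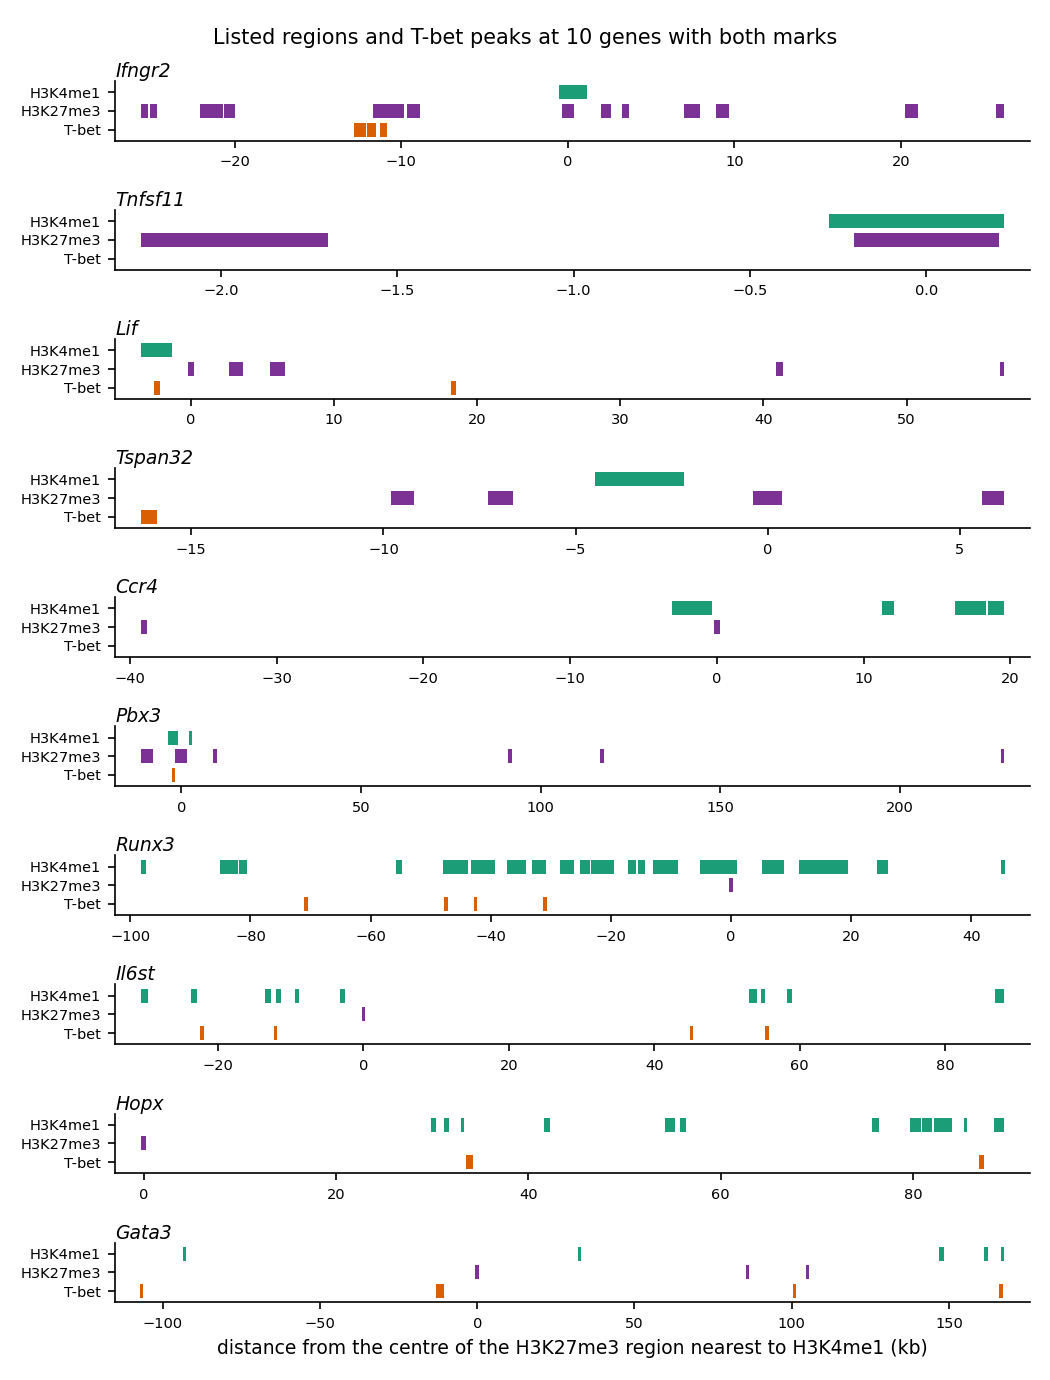
Listed H3K4me1 regions (green), H3K27me3 regions (purple) and T-bet peaks (orange) at 10 genes, as distance in kb from the centre of the H3K27me3 region nearest to H3K4me1; each gene has its own scale and very narrow regions are widened to stay visible. Ifngr2 and Lif show more H3K27me3 regions, Runx3, Il6st and Hopx more H3K4me1 regions.

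T-bet peaks were assigned to 411 of the 1070 genes, or 38.4% (exact 95% interval 35.5 to 41.4, counting error only), where 24.0% of the genes in either histone list had one. The share was 24.8% (23.3 to 26.4) at 3096 genes with H3K4me1 only and 13.8% (12.3 to 15.5) at 1800 genes with H3K27me3 only. The number of regions moved with this share. Among genes with 2 regions in all, 27.1% of 417 genes with both marks (22.9 to 31.6), 30.4% of 582 genes with H3K4me1 only (26.7 to 34.3) and 19.2% of 224 genes with H3K27me3 only (14.3 to 24.97) had a T-bet peak. With 3 to 4 regions the shares were 32.5% with both marks, 44.2% with H3K4me1 only and 28.4% with H3K27me3 only, and with 8 or more regions 81.6% of 98 genes with both marks and 71.9% of 32 genes with H3K4me1 only. At like total numbers of regions, genes with both marks did not have a higher share than genes with H3K4me1 only, except with 8 or more. There the intervals overlap (72.5 to 88.7 and 53.3 to 86.3). At a like number of H3K4me1 regions the order was the reverse for single regions. Of 2094 genes with 1 H3K4me1 region and no listed H3K27me3 region, 18.4% (16.7 to 20.1) had a peak, against 27.1% of the 417 with 1 of each. These shares are given as a description, and the difference between the classes was not tested.

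**Figure D3:**
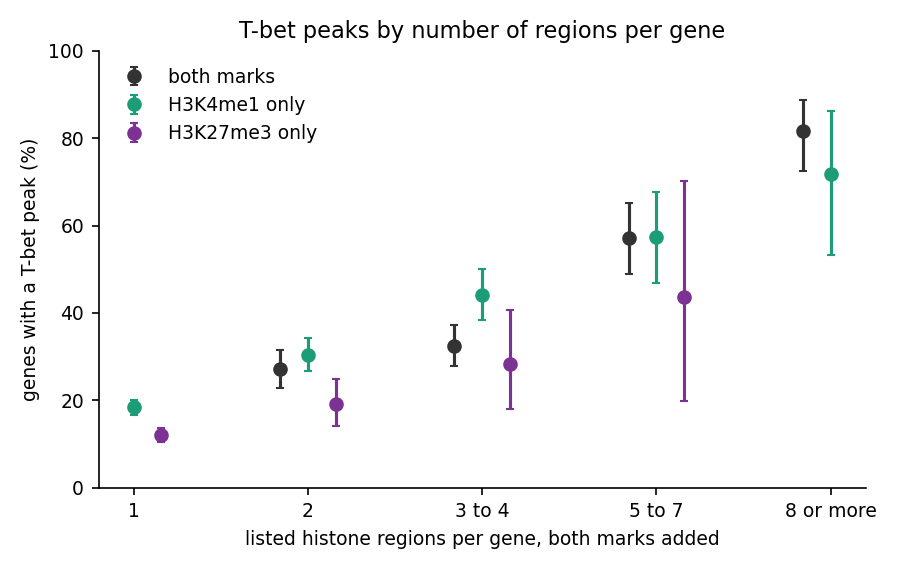
Percentage of genes with a T-bet peak (vertical axis) by the number of listed histone regions per gene (horizontal axis), for genes with both marks (black), with H3K4me1 only (green) and with H3K27me3 only (purple); points are shares and bars exact 95% intervals, and classes under 16 genes are left out. The share rises with the number of regions in each class of genes, from 27.1% to 81.6% at genes with both marks.

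Within these genes T-bet peaks lay nearer to H3K4me1 than to H3K27me3. Of their 667 peaks, 127 or 19.0% overlapped an H3K4me1 region of the same gene, and 9 or 1.35% an H3K27me3 region. No allowance was made for the 2524 H3K4me1 regions, of median length 688 bases, against 1678 H3K27me3 regions of 514 bases. Seen from the regions, 5.19% of the H3K4me1 regions at genes with both marks overlapped a T-bet peak of any gene, and 3.53% at genes with H3K4me1 only. The peak nearest to each mark was a median of 1953 bases from H3K4me1 and 24726 bases from H3K27me3, and it was nearer to H3K4me1 at 325 of 411 genes and nearer to H3K27me3 at 83. At the 113 bound genes with 1 region of each mark, where the numbers of regions are equal, T-bet was nearer to H3K4me1 in 87 and nearer to H3K27me3 in 26, with median distances of 5847 and 26990 bases. By the distance between the marks, the share of bound genes was 46.8% where the marks overlapped (32.1 to 61.9), 41.8% under 5 kb, 35.7% at 5 to 20 kb, 38.9% at 20 to 50 kb, 33.3% at 50 to 100 kb (25.8 to 41.6) and 32.8% at 100 to 200 kb (21.6 to 45.7). Over 200 kb it was 72.2%, on 13 of 18 genes (46.5 to 90.3). The median number of regions per gene was 4 where the marks overlapped, 3 in the classes up to 100 kb and 2 beyond; the shares were not compared at like numbers of regions or tested.

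A T-bet peak on an H3K27me3 region was found at 8 genes, of which Lpp was among the closest pairs and the others were chosen after their values were seen, apart from Ifngr2. At Lpp, Sfpi1 and Spry1 T-bet peaks overlapped regions of each mark. The other genes were S1pr1, which encodes the lymphocyte egress receptor, D2hgdh, Fam105a and 3830408C21Rik. Ifngr2 had 2 such peaks. Of the 1678 H3K27me3 regions at genes with both marks, 0.536% (0.246 to 1.02) overlapped a T-bet peak of any gene. At genes with H3K27me3 only the share was 0.265% of 2265 regions (0.0973 to 0.576).

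The genes with most T-bet peaks were Btg1 and Ets1 with 8 each, followed by 0610040F04Rik and H2afy3 with 7 and by Id2 and Fyn with 6. Of the genes with 5 peaks, the 4 with the highest fold enrichment of a peak were Mbd2, Runx2, Trib2 and Gata3. Btg1, an antiproliferative protein of resting lymphocytes, had 6 H3K4me1 regions and 1 H3K27me3 region. Its T-bet peak of highest fold enrichment, 8.83, had 12 tags. Ets1, a transcription factor that cooperates with T-bet at Ifng, had 3 H3K4me1 and 2 H3K27me3 regions, with a highest peak fold of 8.82 on 12 tags. Id2, an inhibitor of E proteins needed by effector T cells, had 11 H3K4me1 regions and 1 H3K27me3 region, 59333 bases from the nearest H3K4me1. Fyn, an antigen receptor kinase, had 4 H3K4me1 regions around 1 H3K27me3 region. These 10 loci had from 1 to 3 H3K27me3 regions each, which does not set them apart. Over all genes with both marks the median was 1 H3K27me3 region and the 90th percentile was 3.

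Transcripts of 52 of the 1070 genes were on the authors' expression lists, which hold genes with at least a 2-fold difference between the genotypes. Of them 32 were lower in Tbx21-/- cells, 2.99% of the 1070 genes where 2.58% of the genes in either histone list were, and 20 were higher, 1.87% where 1.64% were. Both shares are thus near those of the background. No listed gene was below 5.02 FPKM in the genotype where it was higher, so absence from both lists does not show that a transcript was unchanged. The balance of the directions lay between those of the single marks. Of the listed genes, 38.5% with both marks (20 of 52; exact 95% interval 25.3 to 53.0), 19.7% with H3K4me1 only (29 of 147; 13.6 to 27.1) and 92.5% with H3K27me3 only (49 of 53; 81.8 to 97.9) were higher in Tbx21-/- cells. The size of the change was close to that of the lists as a whole, by the log2 ratios (Tbx21-/- over wild type) that the authors' deposited table gives: the median was -1.49 over the 32 and -1.59 over all 219 lower genes, and 1.32 over the 20 and 1.44 over all 211 higher genes. With 1 combined value per genotype, single genes have no error and no p-value here.

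The lower genes had more H3K4me1 and the higher genes more H3K27me3 regions, a difference that was not tested. The 32 lower genes had a median of 6 H3K4me1 regions (1 to 38) and 1 H3K27me3 region (1 to 4), and 28 had more H3K4me1 than H3K27me3 regions, 0 the reverse and 4 equal numbers. The 20 higher genes had a median of 1 H3K4me1 region (1 to 5) and 2 H3K27me3 regions (1 to 13), and 3 had more H3K4me1, 9 more H3K27me3 and 8 equal numbers. Among the 1018 genes on neither list, 37.4% had more H3K4me1 and 17.6% more H3K27me3 regions. Seen from the regions, 21 of 111 genes with 5 or more H3K4me1 regions were on the lower list, or 18.9%, against 0.526% of the genes with a single one; 4 of 57 genes with 4 or more H3K27me3 regions were on the higher list, or 7.02%, against 0.966% of the genes with a single one. T-bet peaks were assigned to 22 of the 32 lower and 10 of the 20 higher genes, and to 37.2% of the genes on neither list. The numbers of regions differ between these groups, with a median of 1 region of each mark at the genes on neither list, and the share with a peak was 57.2% among all genes with both marks and 5 to 7 regions and 81.6% with 8 or more.

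**Figure D4:**
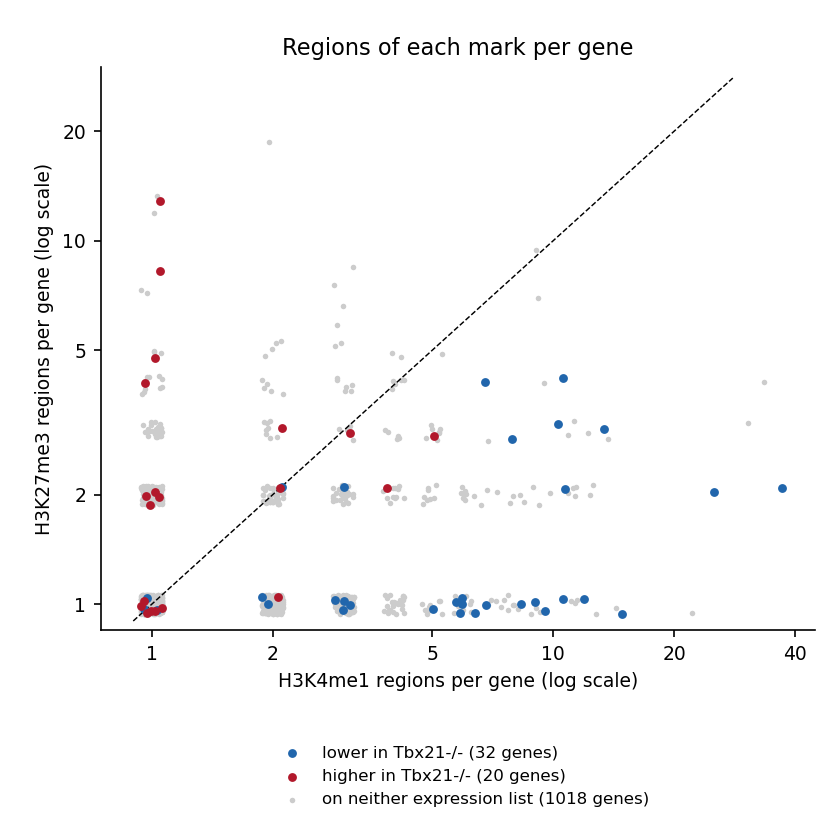
Number of H3K27me3 regions (vertical axis) against number of H3K4me1 regions (horizontal axis) per gene on log scales, with points spread slightly to separate them and the dashed line at equal numbers; genes lower in Tbx21-/- cells are blue, higher red and on neither list grey. No blue point lies above the line beyond that spread, and 9 of 20 red genes have more H3K27me3 regions.

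Among the lower genes with both marks were transcription factors. Hopx, a homeodomain-only protein known to protect Th1 cells from death, stood at 6.13 FPKM in Tbx21-/- and 115 FPKM in wild type cells. Its 12 H3K4me1 regions all lay on one side of its single H3K27me3 region, 29601 bases or more away, with T-bet peaks at chromosome 5, 77520435 to 77521190 and 77573739 to 77574331. Irf8, an interferon regulatory factor, was at 39.2 FPKM in Tbx21-/- and 95.5 FPKM in wild type cells, and Etv5, an ETS factor, at 10.8 FPKM in Tbx21-/- and 35.2 FPKM in wild type cells. These loci share the balance of many H3K4me1 regions and few H3K27me3 regions, 6 and 1 at Irf8 and 13 and 3 at Etv5. Mycn, a Myc family factor, was at 7.37 FPKM in Tbx21-/- and 29.3 FPKM in wild type cells, with 3 H3K4me1 regions, 1 H3K27me3 region between them and no T-bet peak. Foxp1, a factor of quiescent T cells, had the most H3K4me1 regions of all, 38, and 2 H3K27me3 regions at least 147925 bases away, and stood at 6.58 FPKM in Tbx21-/- and 13.8 FPKM in wild type cells.

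Enzymes that act on sugar chains and secreted proteins were also among the lower genes. Sulf2, an extracellular sulfatase, was at 1.61 FPKM in Tbx21-/- and 41.3 FPKM in wild type cells, the lowest log2 ratio of the 52 genes (-4.67 in the authors' deposited table). With 1 FPKM added to each value, Hopx was lowest at -4.026, next to Sulf2 at -4.018. Gcnt1, the branching enzyme of selectin ligands, was at 0.711 FPKM in Tbx21-/- and 6.25 FPKM in wild type cells. Both had many H3K4me1 regions, 14 and 8, and a single H3K27me3 region. Ust, a sulfotransferase, was at 2.59 FPKM in Tbx21-/- and 6.48 FPKM in wild type cells, and Arsb, a lysosomal sulfatase, at 12.0 FPKM in Tbx21-/- and 25.6 FPKM in wild type cells. The gelatinase Mmp9 was at 3.38 FPKM in Tbx21-/- and 17.2 FPKM in wild type cells, the matrix protein Sparc at 2.65 FPKM in Tbx21-/- and 6.20 FPKM in wild type cells, and C1qtnf6, a secreted protein of the C1q and TNF family, at 3.29 FPKM in Tbx21-/- and 20.7 FPKM in wild type cells. Mmp9 and Sparc had 1 region of each mark, so not every lower gene had an excess of H3K4me1.

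Several receptors, transporters and signalling proteins were among the other lower genes. Il6st, the signalling chain of the interleukin-6 receptor, was at 9.35 FPKM in Tbx21-/- and 27.8 FPKM in wild type cells. Its single H3K27me3 region sat among 10 H3K4me1 regions, 2234 bases from the nearest, and 1 of its 4 T-bet peaks overlapped an H3K4me1 region. Slc24a3, a sodium, calcium and potassium exchanger, was at 0.537 FPKM in Tbx21-/- and 8.48 FPKM in wild type cells, and Sema6d, a membrane semaphorin, at 0.807 FPKM in Tbx21-/- and 6.88 FPKM in wild type cells. Sema6d was the one lower gene whose H3K4me1 regions lay between H3K27me3 regions. Entpd1, the ectoenzyme CD39, was at 11.8 FPKM in Tbx21-/- and 24.9 FPKM in wild type cells, and the NF-kappaB inhibitor Tnfaip3 (A20) at 6.77 FPKM in Tbx21-/- and 13.8 FPKM in wild type cells. The adaptors Pag1 and Pik3ap1 had 10 H3K4me1 regions each, with 4 and 3 H3K27me3 regions; Pag1 was at 7.30 FPKM in Tbx21-/- and 16.2 FPKM in wild type cells. The kinase gene Dyrk2, which lies near Ifng, had 25 H3K4me1 regions and 2 H3K27me3 regions but no T-bet peak, and was at 16.0 FPKM in Tbx21-/- and 45.2 FPKM in wild type cells. Btg1 was at 23.4 FPKM in Tbx21-/- and 51.6 FPKM in wild type cells. The remaining lower genes were 0610040F04Rik, 1700025G04Rik, 2900026A02Rik, Actn1, D8Ertd82e, Fhl2, Gramd3, Lrig1, Mctp2, Mx1 and Mylip, with 0.958 to 9.75 FPKM in Tbx21-/- and 5.35 to 19.8 FPKM in wild type cells.

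Cytokines and their receptors were found among the higher genes. Ifngr2, the signalling chain of the interferon-gamma receptor, which Th1 cells are known to turn down, stood at 9.57 FPKM in Tbx21-/- and 1.66 FPKM in wild type cells. It had 13 H3K27me3 regions on chromosome 16 between 91520435 and 91572233 and a single H3K4me1 region at 91545516 to 91547196, which held the H3K27me3 region at 91545668 to 91546410. Its 3 T-bet peaks lay between 91533187 and 91535190, 10325 bases or more from the H3K4me1 region. Ifngr2 is thus a locus where T-bet peaks and H3K27me3 regions lay together. Lif, a cytokine of the interleukin-6 family, was at 81.3 FPKM in Tbx21-/- and 39.1 FPKM in wild type cells, with 1 H3K4me1 region that held a T-bet peak and 5 H3K27me3 regions beginning 1118 bases away. Tnfsf11, the ligand RANKL, was at 13.8 FPKM in Tbx21-/- and 5.70 FPKM in wild type cells, and Tnfrsf8, the receptor CD30, at 117 FPKM in Tbx21-/- and 53.2 FPKM in wild type cells. At Tnfsf11 the whole H3K27me3 region of 413 bases on chromosome 14 at 78744434 to 78744846 lay in its H3K4me1 region, and there was no T-bet peak. Ccr4, a chemokine receptor of Th2 cells, was at 124 FPKM in Tbx21-/- and 23.8 FPKM in wild type cells. With 4 H3K4me1 and 2 H3K27me3 regions and no T-bet peak, it was 1 of the 3 higher genes with more H3K4me1 regions, besides Itpr2 and Tns4.

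Of all 20 higher genes Pou2af1, a coactivator of B cells that follicular helper T cells also use, stood furthest up, by 5.22 as log2 per the authors' deposited table, at 8.69 FPKM in Tbx21-/- and 0.194 FPKM in wild type cells. With 1 FPKM added to each value its log2 ratio was 3.02, since the wild type value is low. Of 5 B cell markers 1, Cd79a, was also on the list of higher genes, at 5.36 FPKM in Tbx21-/- and 0.722 FPKM in wild type cells. The other 4 were on neither list, which does not show them unchanged. No listed gene was below 5.02 FPKM in its higher genotype. Cd74, H2-Aa, H2-Ab1 and H2-Eb1, counted above as myeloid and dendritic markers, were on the list of higher genes too. A part of B cells in the value of Pou2af1 was not tested. The integrin chain Itga4 was at 7.86 FPKM in Tbx21-/- and 0.877 FPKM in wild type cells, and Tns4, a tensin, at 9.85 FPKM in Tbx21-/- and 1.22 FPKM in wild type cells. Tspan32, a tetraspanin of blood cells, was at 23.8 FPKM in Tbx21-/- and 6.31 FPKM in wild type cells. Its H3K4me1 region lay between 4 H3K27me3 regions, as did that of Ralb, a Ras-like GTPase with 8 H3K27me3 regions, at 8.32 FPKM in Tbx21-/- and 3.09 FPKM in wild type cells. The T-bet peak of Tspan32 had a fold enrichment of 10.45. Cyp11a1, the first enzyme of steroid synthesis, which Th2 cells express, was at 144 FPKM in Tbx21-/- and 65.6 FPKM in wild type cells, and Klf3, a Krüppel-like repressor, at 6.93 FPKM in Tbx21-/- and 2.76 FPKM in wild type cells. The other members were Adarb1, Aig1, D18Ertd653e, Glb1, Heg1, Hist1h2ah, Itpr2 and Pmepa1; the value of Hist1h2ah is uncertain, since histone genes have near-identical copies.

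**Figure D5:**
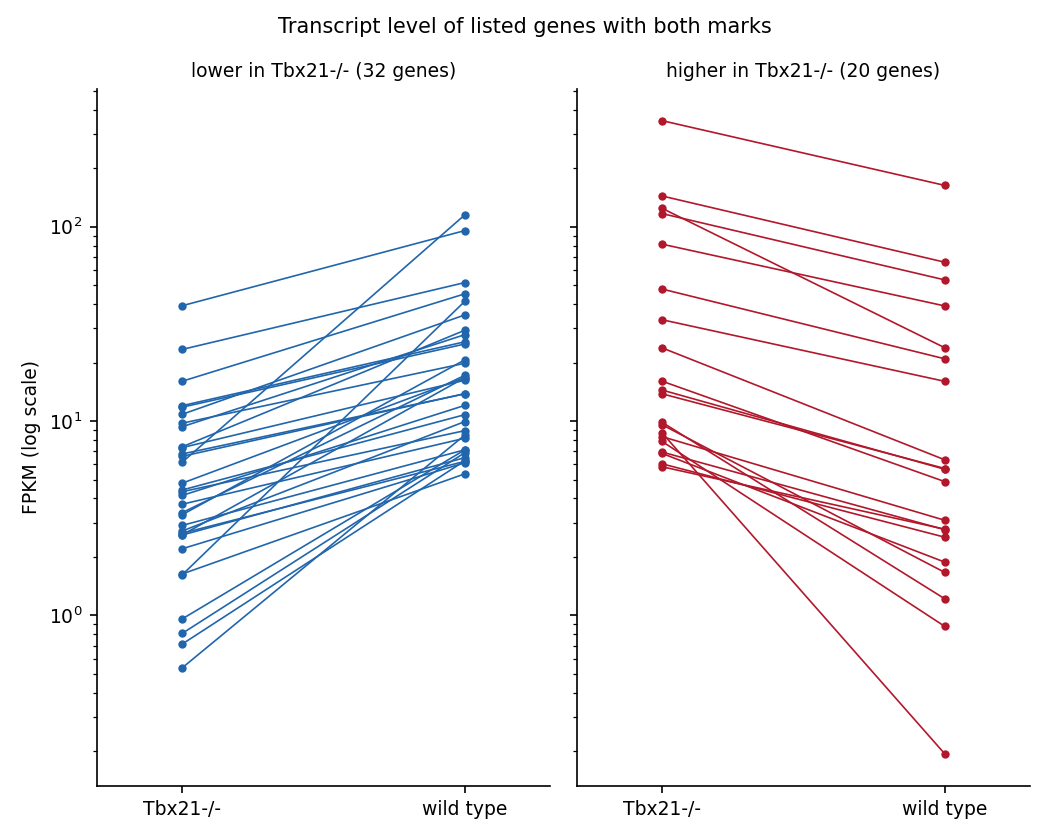
FPKM on a log scale (vertical axis) of the 52 listed genes with both marks in Tbx21-/- cells (left) and wild type cells (right), with a line per gene; the left panel holds the 32 genes lower and the right panel the 20 genes higher in Tbx21-/- cells. Values run from 0.537 to 39.2 FPKM in Tbx21-/- cells and from 5.35 to 115 FPKM in wild type cells at the lower genes, and from 5.82 to 351 FPKM in Tbx21-/- cells and from 0.194 to 163 FPKM in wild type cells at the higher genes.

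Of 57 transcription factors of helper T cells, 17 had both marks, 16 H3K4me1 only, 11 H3K27me3 only and 13 neither. Those with both were 38.6% of the 44 in either list, where 17.9% of all genes in either list had both; this is a description of a list chosen with earlier results known. Of the 17, 12 had a T-bet peak, 4 were lower in Tbx21-/- cells (Etv5, Foxp1, Hopx and Irf8) and 1 was higher (Klf3). Over all 1070 genes with both marks 38.4% had a peak, 2.99% were lower and 1.87% were higher. Several of the 17 had many regions, such as Foxp1 with 38 of H3K4me1. Among all genes with both marks and 8 or more regions, 81.6% had a peak, and no comparison at like numbers of regions was made. Gata3, the Th2 regulator, had 3 H3K27me3 regions within the reach of its 5 H3K4me1 regions, over 260849 bases in all, with 5 T-bet peaks, and was on neither expression list. Maf, a factor of Th2 and interleukin-10-producing cells, had 5 H3K27me3 and 3 H3K4me1 regions, and Prdm1, which encodes Blimp-1, 5 H3K4me1 and 3 H3K27me3 regions. All 3 Runx genes had both marks, with unlike balance: 21 H3K4me1 regions and 1 H3K27me3 region at Runx3, 11 and 1 at Runx2, and 1 and 3 at Runx1. Each Runx gene had 4 or 5 T-bet peaks. Bcl6, Egr2, Egr3, Ahr and Nfil3 had 1 or 2 H3K4me1 regions, 1 H3K27me3 region and no T-bet peak.

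The other lists are given against the 17.9% of all genes in either list that had both marks. Of 55 cytokine and receptor genes, 8 had both marks: Ifngr2, Il1r1, Il6st, Lif, Tgfbr2, Tgfbr3, Tnfrsf8 and Tnfsf11. They were 20.5% of those in either list. Of these 8 genes, 4 were higher and 1 was lower in Tbx21-/- cells. Over all 1070 genes with both marks 1.87% were higher and 2.99% lower, and the difference was not tested. Of 21 chemokine and receptor genes, 4 had both, namely Ccr4, Ccr7, Ccr9 and Cxcr4, which is 28.6% of the 14 in either list. Ccr7, the receptor for lymph node homing, had 2 H3K27me3 regions and 1 H3K4me1 region of 237 tags, and Cxcr4 had 4 T-bet peaks. Symbols of developmental gene families were taken by their opening letters, and 113 were counted, fewer than these families hold. The 113 thus do not show what part of the families had a listed region. Some of them are also in the list of helper T cell factors. Of the 113, 20 had both marks, 19.6% of those in either list. Among them were Irx5, Lhx2, Lhx5, Pax2, Six2, Tbx2 and Tbx4 with 1 or 2 regions of each mark. Ephx3, an epoxide hydrolase, fell into this list by its symbol. Of 36 symbols of Polycomb and H3K4 methylation enzymes, which include older names of the same genes, 2 had both marks, namely the Polycomb cofactors Aebp2 and Phf19, while 10 had H3K4me1 only and 0 H3K27me3 only.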

How the data were processed

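All values come from 5 lists deposited by the authors. FPKM and log2 ratios are the authors' own, per the file headers, with 1 value per genotype for its 2 libraries. Tag counts per region, fold enrichment (a ratio to the control of the peak caller) and the false discovery rate of T-bet peaks in percent are as deposited by the authors. MACS 1.4.1, TopHat 1.3.3, Bowtie 0.12.7, DESeq, CASAVA 1.7 and build mm9 appear in the submitters' processing notes, without their roles; the control of the histone lists and the sequencing depth are not given in the sources used here. Coordinates are 1-based, and the authors assigned the closest gene of each region.

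Genes were joined by exact symbol; 12 H3K4me1, 6 H3K27me3 and 10 T-bet entries with date-like names were left out. Distances run between nearest edges, and overlap means at least 1 base. Intervals are exact Clopper-Pearson 95% intervals and cover counting error only. No test was run, because the lists hold no value per replicate and the genes were chosen from the lists. RefSeq (GRCm38.p6) gave names for 1064 of the 1070 genes. The distance and order routines were tested on simulated data. Named genes are the 30 largest listed expression changes, the closest and farthest pairs, the genes with most regions or T-bet peaks, and members of 5 gene lists; the other listed genes were added. The genes and lists were chosen with earlier results of these data known. Values were computed with SciPy 1.17.1, numpy 2.4.6 and pandas 2.3.3 in Python 3.11.15 and plotted with matplotlib 3.10.9.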

Additional observations from a re-analysis of the deposited data

How the results depend on the processing

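Of 22 alternatives run, 14 left their value within 1.5 times the count or inside its 95% interval and 8 moved it further. The 2 median log2 ratios kept their sign in every setting run, but each was taken within a list of 1 direction, so no setting could reverse it. With histone regions at or above the median fold of their list, fewer regions remained: 437 genes had both marks, the median distance was 31673 bases and 80.3% of genes had the marks on separate sides, with H3K4me1 at the lower coordinates in 49.9% of these, against 51.7% with every region. The share of genes with a T-bet peak was 24.95% with T-bet peaks at or above the median fold, 35.4% with peaks within 20 kb of a region, and 27.1% at genes with 1 region of each mark, an alternative chosen after seeing the data. With overlap of at least 50% of the peak, 5 peaks lay on H3K27me3. At a 3-fold difference, 2.06% of the genes (22) were on the expression lists. Median log2 ratios with a pseudocount of 1 were -1.31 for the lower and 1.17 for the higher genes. No paired analysis was possible because the expression lists give 1 combined value per genotype, and for the same reason no library could be left out. A high fold need not mean many tags, so the settings by median fold do not pick the regions with most tags. The lists hold selected regions with few tags, so a gene without a listed region may still carry the mark.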

Other observations

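The farthest pairs of marks were at Sox5, a developmental SOX factor, with 521439 bases between the nearest regions, then Rgs6 with 440886, 4930430F21Rik with 381990, A730082K24Rik with 352992 and Ngly1 with 340029 bases. The most H3K27me3 regions were at B230120H23Rik, with 19 H3K27me3 and 2 H3K4me1 regions and 3 T-bet peaks, followed by Ifngr2 and Gm5122 with 13 H3K27me3 regions and 1 H3K4me1 region each. Adam6a, which lies in the immunoglobulin heavy chain locus, had 10 H3K27me3 and 9 H3K4me1 regions over 1114591 bases. Of the 1070 genes, 967 were protein-coding and 78 long noncoding RNA genes in RefSeq.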
